A study of Homo sapiens with 8 samples.

Results

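The 30 genes described here encode the enzymes that turn acetyl-CoA into cholesterol, the transcription factor SREBP2 with the proteins that process it, and 2 proteins that move or bind sterols. They were taken by symbol from a table of 62700 rows, and each of the 30 symbols matched 1 row. By role they fall into 8 enzymes of the mevalonate arm, 12 enzymes that act from squalene formation to cholesterol, here called the sterol arm, 8 genes of SREBP2 and its processing, and 2 genes of sterol movement. Other genes of the pathway are not analysed here. All 30 passed the filter on low counts, with between 207 (TM7SF2) and 7488 (SREBF2) counts in a library.

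Cells make cholesterol by condensing acetyl-CoA units into mevalonate, building from it the isoprenoid farnesyl diphosphate, and joining farnesyl units into squalene, which is cyclised and then trimmed to cholesterol. Transcription of these enzymes is controlled by SREBP2, a membrane protein that SCAP carries from the endoplasmic reticulum to the Golgi when sterols are scarce, where the site-1 and site-2 proteases release the active fragment that enters the nucleus. INSIG proteins hold the SCAP and SREBP2 complex back when sterols are plentiful, and macrophages that take up modified lipoprotein receive cholesterol through lysosomes, which is known to restrain this pathway.

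The libraries came from THP-1, a human monocytic leukaemia cell line. Cells were differentiated to macrophages with 50 ng/mL of the phorbol ester PMA for 72 h and pre-treated for 24 h with either the solvent DMSO (below 0.1% by volume) or 0.5 µM auranofin (AF), a gold compound that inhibits thioredoxin reductase. They were then loaded with acetylated low-density lipoprotein (AcLDL) for 48 h to form foam cells, with the drug kept on, per the labels' treatment protocol. The series' design text instead places the drug after loading. Each group has 4 libraries, and both groups received PMA and AcLDL, so the series holds neither unloaded macrophages nor cells without PMA. The question was what auranofin does in cells that form foam cells. Poly-A RNA was sequenced from 250 ng of total RNA with a stranded preparation.

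Depth lay between 19336073 and 32325981 counts per library. AF replicate 1 stood apart: the 4 table rows with most counts in it, 3 of which lie at annotated ribosomal RNA genes, took 33.0% of its counts against 0.728% to 0.936% elsewhere. The 30 genes took 0.155% of its counts, against 0.215% to 0.226% in the DMSO libraries and 0.248% to 0.252% in AF replicates 2 to 4, and its scaling factor was 0.679 against 1.04 to 1.08. Results are therefore also given without it. Nothing in the labels says that libraries of a group are separate cultures, and library names share stems (A4 with A4b, for example), so p-values reflect only how these 8 libraries vary, and that variation may be technical. Summed macrophage markers lay at 5010 to 5857 CPM (counts scaled to a common library size) with DMSO and 4492 to 4995 with AF, and of the 12 markers 3 rose and 4 fell with AF (58.3% called, against 15.4% of all genes tested). The markers MRC1, LYZ and MSR1 fell to 0.354, 0.519 and 0.603 of their vehicle level, and the integrin ITGAX rose 1.61-fold. The part of these marker differences in the results on the 30 genes was not tested. Among 12 markers of other cell types, only PECAM1, which macrophages also express, was above 5 CPM, at 295.9 to 323 CPM, and MS4A1, EPCAM, COL1A2 and HBB were at 0 counts in all 8 libraries. In bulk RNA, fewer cells and less RNA per cell cannot be told apart.

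Auranofin-treated foam cells carried more mRNA of a set of cholesterol synthesis genes than vehicle foam cells, by modest amounts. Of the 30 genes, 10 rose (33.3%), where 7.62% of the 17535 genes tested were higher with AF, and 0 fell, where 7.81% were lower (edgeR quasi-likelihood test, Benjamini-Hochberg adjusted p below 0.05 over all genes tested). The 10 were ACAT2, MVD and IDI1 of the mevalonate arm, FDFT1, SQLE, MSMO1 and DHCR7 of the sterol arm, INSIG1 and MBTPS1 of SREBP2 processing, and the sterol carrier STARD4. Their log2 fold changes ran from 0.20 to 0.52, which is 1.15-fold to 1.43-fold. Of the 30 genes, 10 had all 4 AF libraries above the 4 DMSO libraries, where 9.86% of all genes tested did. In 0 of the 30 did they lie below them (9.68% of all genes tested). The 10 separated genes are the 10 that passed the test. Both rest on the same 8 values, so the separation is no further support for these calls.

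Across all 30 genes, 25 log2 fold changes were positive and 5 negative, with a median of 0.19 and a range of -0.24 to 0.52, against a median of 0.005 over all genes tested. Scaling by library totals alone, which AF replicate 1 dominates, moved the median of all genes to -0.145 and that of the 30 genes to 0.04. The 30 genes' median was 0.182 above the median of all genes in the chosen scaling and 0.185 above it with totals alone, where 0 of the 10 passed the test although all 10 stayed positive. Without AF replicate 1, 10 genes rose, where 6.82% of all genes tested did, and 9 of the 10 were the same. MVD missed the threshold (adjusted p = 0.0602), SC5D passed it (adjusted p = 0.0344), and PMVK fell (log2 fold change -0.29, adjusted p = 0.0265). With all libraries 16 genes were higher and 1 lower (PMVK) at an unadjusted p below 0.05, which 14.9% of all genes tested met in the higher and 14.8% in the lower direction. PMVK was called lower by DESeq2 and by limma voom with a correlation estimated within library name stems.

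**Figure D1:**
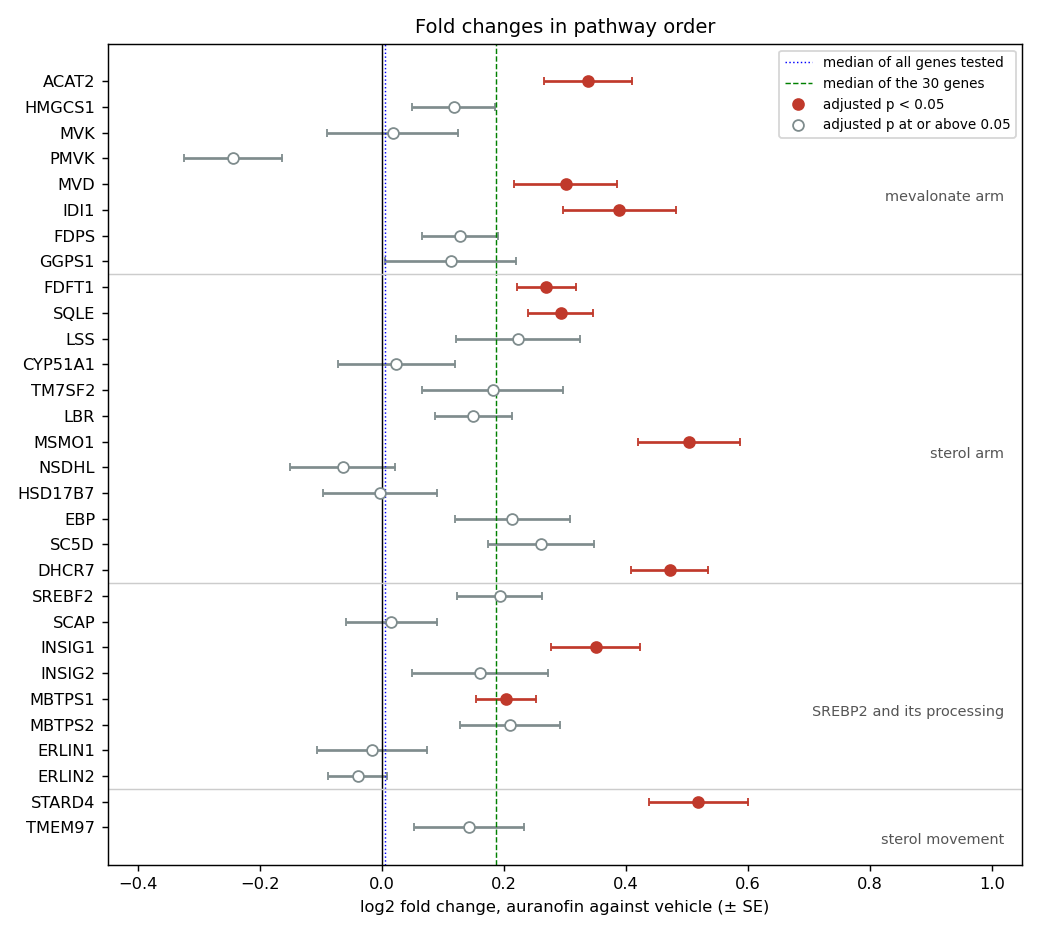
Log2 fold change of each of the 30 genes, auranofin against vehicle, with its standard error, in pathway order from top to bottom; filled points passed the edgeR test and open points did not, and the dotted and dashed lines mark the medians of all genes and of the 30 genes. The 10 filled points lie to the right of 0 in all 4 role groups, and PMVK lies farthest to the left at -0.24.

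The summed level of the 30 genes was 2051, 2048, 2063 and 2096 CPM in DMSO replicates 1 to 4 and 2286, 2377, 2383 and 2398 CPM in AF replicates 1 to 4. The groups did not overlap, and the lowest sum with AF was in replicate 1. Each AF library on its own had a positive median difference from the DMSO mean over the 30 genes, at 0.12, 0.21, 0.21 and 0.17 on the log2 scale. In the same order, 13, 18, 20 and 18 of the 30 genes lay above all 4 DMSO libraries, where 26.5%, 27.8%, 27.4% and 31.5% of all genes tested did. Below all 4 DMSO libraries lay 2, 1, 3 and 4 of the 30 genes, where 25.7%, 27%, 28% and 30.4% of all genes tested did. The median standard deviation within a group was 0.113 on the log2 scale for the 30 genes and 0.152 for all genes tested.

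**Figure D2:**
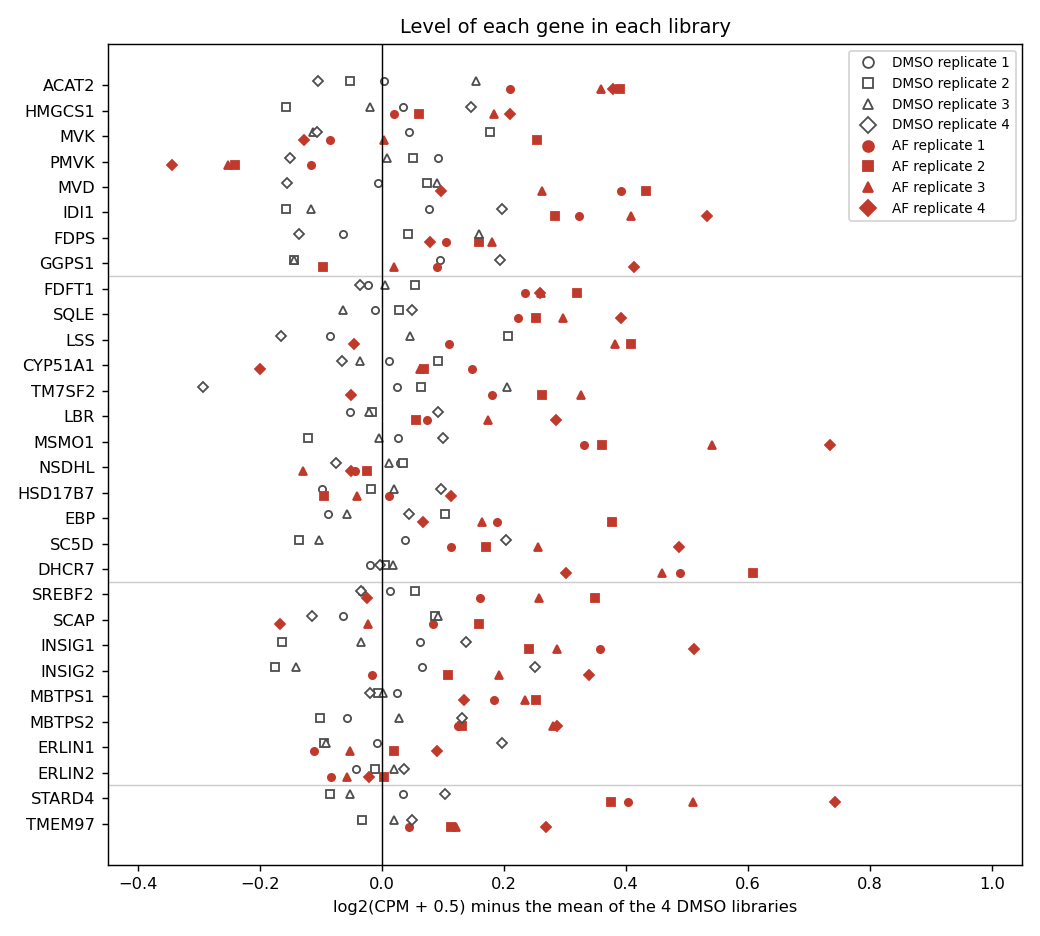
Level of each gene in each library as log2(CPM + 0.5) minus the mean of the 4 DMSO libraries; open symbols are DMSO and filled symbols AF, and the marker shape gives the replicate number. For DHCR7, MSMO1 and STARD4 the AF points lie well to the right of the DMSO points, whereas for MVK, SCAP, CYP51A1 and HSD17B7 the 2 sets mix.

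Promoters of 5 genes that rose and that of SREBF2 are shown because SREBP2 acts beside the factors NF-Y, which binds CCAAT, and SP1, which binds GC-rich boxes. All 5 held CCAAT, which follows from the choice: they are those with CCAAT among the 7 genes with an entry that rose. It was also present in 11 of the 18 genes with an entry that did not pass the test. IDI1 and MBTPS1, which also rose and had a promoter entry, held none in the windows searched and are not shown. Promoter entries were found for 25 of the 30 genes in RefSeq (GRCh38.p14). Each stretch starts 250 bases before the RefSeq start and stops at the first annotated exon of GENCODE 29, reads 5′ to 3′ on the gene's strand, and has capitals at CCAAT (or its reverse complement ATTGG) and at the sterol regulatory element searched for, TCACNCCAC. The positions are chr22:41832855-41833078 (plus strand) for SREBF2, chr4:165327419-165327622 (plus) for MSMO1, chr11:71448436-71448643 (minus) for DHCR7, chr5:111512591-111512785 (minus) for STARD4, chr16:88663162-88663341 (minus) for MVD and chr7:155297628-155297775 (plus) for INSIG1. The DHCR7 stretch lies inside the longer gene span of GENCODE 29, since RefSeq places the start downstream.
SREBF2: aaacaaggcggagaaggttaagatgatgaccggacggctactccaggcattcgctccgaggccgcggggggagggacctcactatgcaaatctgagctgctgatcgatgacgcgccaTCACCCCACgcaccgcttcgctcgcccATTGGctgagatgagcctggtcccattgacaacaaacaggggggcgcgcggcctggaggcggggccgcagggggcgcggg
MSMO1: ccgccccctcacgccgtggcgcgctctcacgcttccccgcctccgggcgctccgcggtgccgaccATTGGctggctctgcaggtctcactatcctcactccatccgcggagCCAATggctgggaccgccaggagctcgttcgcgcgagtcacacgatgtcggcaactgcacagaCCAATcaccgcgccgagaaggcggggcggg
DHCR7: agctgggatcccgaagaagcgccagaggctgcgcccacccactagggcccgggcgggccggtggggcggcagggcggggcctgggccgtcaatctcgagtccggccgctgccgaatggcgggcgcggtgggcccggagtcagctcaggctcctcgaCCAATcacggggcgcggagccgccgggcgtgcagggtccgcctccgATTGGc
STARD4: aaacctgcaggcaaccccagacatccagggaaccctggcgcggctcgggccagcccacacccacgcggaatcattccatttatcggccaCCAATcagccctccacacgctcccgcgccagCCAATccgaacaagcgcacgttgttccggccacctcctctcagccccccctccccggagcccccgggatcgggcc
MVD: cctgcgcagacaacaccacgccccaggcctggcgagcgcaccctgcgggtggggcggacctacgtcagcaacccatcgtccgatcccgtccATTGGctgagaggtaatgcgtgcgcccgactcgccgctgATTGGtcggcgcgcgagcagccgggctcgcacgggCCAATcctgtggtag
INSIG1: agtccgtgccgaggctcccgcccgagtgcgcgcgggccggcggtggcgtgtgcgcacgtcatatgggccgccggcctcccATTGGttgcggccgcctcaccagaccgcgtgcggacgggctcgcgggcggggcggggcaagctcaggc

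Over the full 250 bases, on both strands, CCAAT was present in 16 of the 25 promoters (64.0%) and in 32% of all 35116 promoters. It occurred in 5 of the 7 genes with an entry that rose and in 11 of the 18 that did not pass the test. MSMO1 held 4 copies, of which the stretch shows 3, MVD held 3, DHCR7 and STARD4 held 2 each, and INSIG1 held 1, while no CCAAT was found in these windows of IDI1 and MBTPS1. The GC box GGGCGG was present in 20 of the 25 (80.0%) against 42.6% of all promoters, and the E-box CACGTG in 3 (12%) against 6.34%. TCACNCCAC was found in 1 of the 25, SREBF2 itself, 133 bases before its start, and in 0.883% of all promoters. The 35116 promoters were not limited to genes expressed in these cells, so the shares compare unlike sets. A match is a run of letters, not a measured binding site, and other spellings of these elements were not searched.

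In the mevalonate arm, 3 of the 8 enzymes rose, and the median log2 fold change was 0.12. ACAT2 (chr6:159760328-159779055, plus strand), the cytosolic thiolase that joins acetyl-CoA units at the entry to the pathway, was at 41.0, 39.5, 45.6 and 38.0 CPM with DMSO and 47.4, 53.8, 52.7 and 53.4 CPM with AF. Every AF library was above the highest DMSO library, with AF replicate 1 the closest. ACAT2 rose 1.26-fold, from 41.0 ± 3.29 to 51.8 ± 2.97 CPM (SD, n = 4 each; log2 fold change 0.34 ± 0.07 SE, adjusted p = 0.00584). Its value is uncertain, because 52.3% of its exon bases are overlapped on the other strand by TCP1, SOD2 and SOD2-OT1 and the strand setting of the counting is not given in the sources used here. SOD2, the mitochondrial superoxide dismutase, lay at 155 to 176 CPM with DMSO and at 208, 429, 428 and 218 CPM with AF. SOD2 rose (log2 fold change 0.97 ± 0.19, adjusted p = 0.00393). AF replicate 1 was the lowest AF library for both genes. AF replicate 4 lay near the lowest AF value for SOD2 (218 CPM) and near the highest for ACAT2 (53.4 CPM). TCP1, a chaperonin subunit, lay at 272 to 291 CPM with DMSO and 267 to 318 CPM with AF (0.03 ± 0.065, adjusted p = 0.8). The part of SOD2 or TCP1 in the ACAT2 value was not tested.

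HMGCS1, the synthase that forms HMG-CoA, was at 95.3 to 118 CPM with DMSO and 108 to 123 CPM with AF. Its groups overlapped, and it did not pass the test (0.12 ± 0.07, adjusted p = 0.267). MVK, mevalonate kinase, the first of 2 kinases that follow, lay at 11.2 to 13.9 CPM with DMSO and 11.1 to 14.6 CPM with AF (0.02 ± 0.11, adjusted p = 0.936). For MVK leaving out single libraries turned the sign, so that no direction is given.

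PMVK, phosphomevalonate kinase, had the lowest log2 fold change of the 30 genes and did not pass the test. It was at 44.0, 42.8, 41.5 and 37.1 CPM with DMSO and 38.0, 34.8, 34.5 and 32.4 CPM with AF. Only AF replicate 1 reached into the range of the DMSO libraries, above DMSO replicate 4. Its log2 fold change of -0.24 ± 0.08 missed the threshold (adjusted p = 0.0543) and passed it in 11 of the 20 alternatives, among them without AF replicate 1 and without DMSO replicate 4 (adjusted p = 0.036). PMVK stood at -0.35 to -0.12 in the 4 AF libraries relative to the DMSO mean on the log2 scale.

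MVD (chr16:88651935-88663161, minus strand), the decarboxylase that makes isopentenyl diphosphate, was at 38.5, 40.7, 41.2 and 34.6 CPM with DMSO and 50.8, 52.3, 46.5 and 41.4 CPM with AF. The groups met closely, with AF replicate 4 just above DMSO replicate 3. MVD rose 1.23-fold (0.30 ± 0.08, adjusted p = 0.0259), but the call was lost when any 1 library other than AF replicate 4 was left out (adjusted p = 0.0553 to 0.0978). IDI1 (chr10:1039152-1049170, minus strand), the isomerase that makes dimethylallyl diphosphate, was at 35.3, 29.9, 30.8 and 38.4 CPM with DMSO and 41.9, 40.8, 44.5 and 48.6 CPM with AF. Replicate 4 was the highest in each group, and the groups did not overlap. IDI1 rose 1.31-fold (0.39 ± 0.09, adjusted p = 0.0108), a call lost without DMSO replicate 2 (adjusted p = 0.0558) or DMSO replicate 3 (adjusted p = 0.0549).

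FDPS, which makes farnesyl diphosphate, was at 124 to 153 CPM with DMSO and 144 to 155 CPM with AF (0.13 ± 0.06, adjusted p = 0.191). GGPS1, which extends it to geranylgeranyl diphosphate and so feeds protein prenylation, was at 39.0 to 49.4 CPM with DMSO and 40.4 to 57.7 CPM with AF (0.11 ± 0.11, adjusted p = 0.520). Neither passed the test. GGPS1 shares 37.3% of its exon bases with TBCE on the same strand, so its counts are uncertain.

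In the sterol arm, 4 of the 12 enzymes rose, with a median log2 fold change of 0.22, and they sit at both ends of the arm and in its middle. FDFT1, squalene synthase, the first committed step, was at 167, 176, 170 and 166 CPM with DMSO and 200, 212, 203 and 203 CPM with AF. All 4 AF libraries were higher and tightly grouped. FDFT1 rose 1.21-fold, from 170 ± 4.73 to 205 ± 5.19 CPM (SD, n = 4 each; 0.27 ± 0.05, adjusted p = 0.00202). SQLE, squalene epoxidase, a rate-limiting oxygenase of this arm, was at 145, 149, 140 and 151 CPM with DMSO and 171, 174, 180 and 192 CPM with AF. Again the groups did not overlap, and SQLE rose 1.23-fold (0.29 ± 0.05, adjusted p = 0.00204).

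MSMO1 (chr4:165327623-165343160, plus strand), the sterol C4-methyl oxidase that begins removal of the C4 methyl groups, had the largest log2 fold change of the enzymes in this fit. DHCR7 was higher when AF replicate 4 (0.52 against 0.42) or DMSO replicate 2 (0.47 against 0.46) was left out and with an offset for GC content (0.51 against 0.44). MSMO1 was at 50.9, 45.9, 49.8 and 53.6 CPM with DMSO and 63.0, 64.3, 73.0 and 83.5 CPM with AF. The AF libraries spread upward from a floor well above the vehicle range, replicate 4 being the highest. MSMO1 rose 1.42-fold, from 50.1 ± 3.19 to 70.9 ± 9.45 CPM (SD, n = 4 each; 0.50 ± 0.08, adjusted p = 0.00102). Its partners in C4 demethylation gave other values: NSDHL, the decarboxylating dehydrogenase, was at -0.06 ± 0.09 (adjusted p = 0.663), and HSD17B7, the ketoreductase, at -0.0027 ± 0.09 (adjusted p = 0.989). Whether MSMO1 differed from these 2 genes was not tested.

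DHCR7 (chr11:71428193-71452868, minus strand), the reductase of the last step to cholesterol, was at 58.9, 59.9, 60.4 and 59.6 CPM with DMSO and 83.9, 91.3, 82.2 and 73.7 CPM with AF. The vehicle libraries were nearly equal, and each AF library was well above them, replicate 4 the least. DHCR7 rose 1.39-fold, from 59.7 ± 0.642 to 82.8 ± 7.23 CPM (SD, n = 4 each; 0.47 ± 0.06), and had the smallest adjusted p of the 30 genes (0.000189). SC5D, the desaturase acting just before it, was at 61.0, 54.0, 55.3 and 68.6 CPM with DMSO and 64.3, 66.9, 71.1 and 83.5 CPM with AF. DMSO replicate 4 lay within the AF range, and the difference of 0.26 ± 0.09 missed the threshold (adjusted p = 0.0578), which it passed in 8 of the 20 alternatives. Without DMSO replicate 4 the SC5D adjusted p was 0.0184.

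The other 5 enzymes of the sterol arm did not pass the test. LSS, which cyclises epoxysqualene to lanosterol, was at 43.8 to 56.9 CPM with DMSO and 47.7 to 65.5 CPM with AF (0.22 ± 0.10, adjusted p = 0.158). LSS passed in 5 of the 20 alternatives, among them without AF replicate 4 (adjusted p = 0.0321). EBP, the sterol isomerase, gave 0.21 ± 0.09 (adjusted p = 0.139). The C14-reductases TM7SF2 and LBR, of which LBR also anchors chromatin at the nuclear lamina, gave 0.18 ± 0.12 (adjusted p = 0.317) and 0.15 ± 0.06 (adjusted p = 0.122). CYP51A1, the lanosterol demethylase, was at 16.05 to 17.96 CPM with DMSO and 14.6 to 18.7 CPM with AF (0.02 ± 0.10, adjusted p = 0.902). The CYP51A1 value is uncertain: 79.4% of its exon bases are shared with other gene models on the same strand, and 2 pseudogene copies, CYP51A1P1 and CYP51A1P2, held 86 to 182 and 202 to 373 counts a library against 334 to 596 for the gene. HSD17B7 has a pseudogene copy too, with 39 to 75 counts against its 409 to 679.

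**Figure D3:**
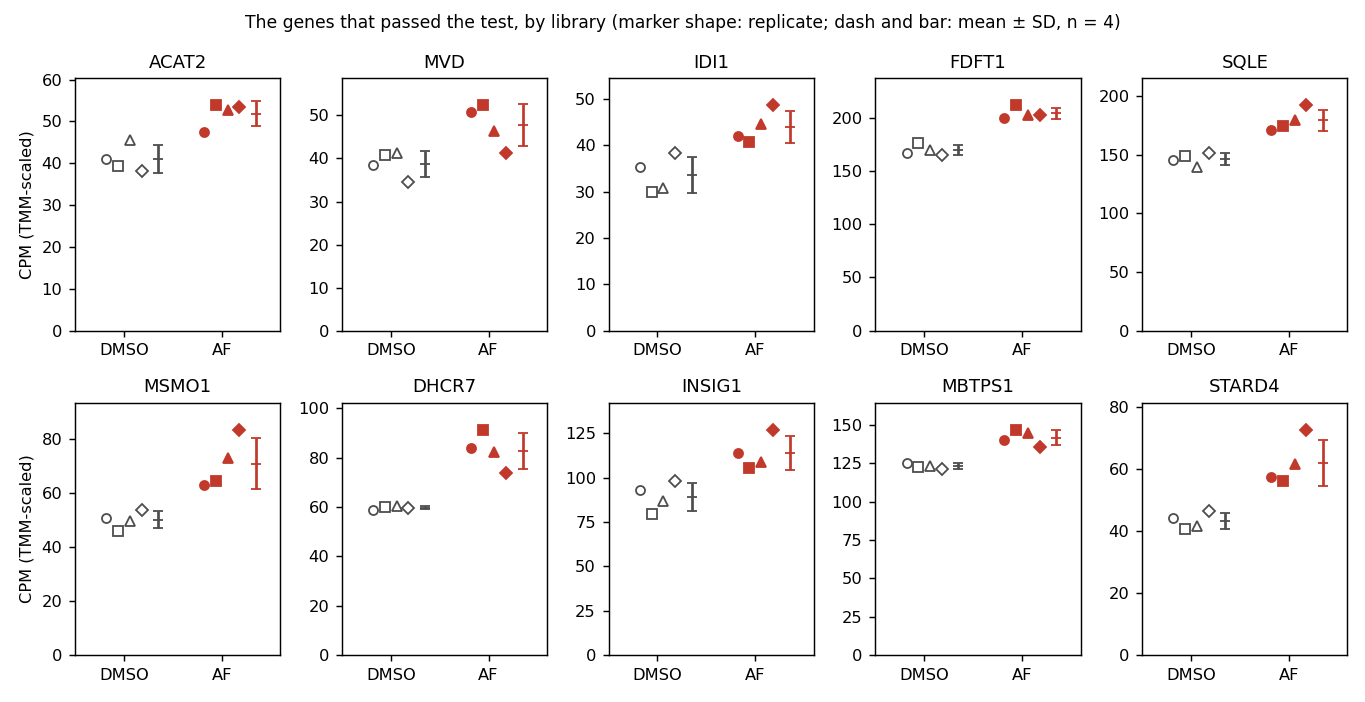
CPM of the 10 genes that passed the test in each library, with axes from 0; open symbols are DMSO, filled symbols AF, marker shape gives the replicate number, and the bar is the mean ± SD of 4 libraries. In all 10 panels the lowest AF value lies above the highest DMSO value, most narrowly in MVD (41.4 against 41.2 CPM).

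Among SREBP2 and the genes that control its processing, 2 of 8 rose, with a median log2 fold change of 0.18. SREBF2, which encodes SREBP2 and is itself one of its targets, was at 176, 181, 170 and 170 CPM with DMSO and 195, 222, 208 and 171 CPM with AF. AF replicates 1 to 3 were above every DMSO library, and AF replicate 4 lay within the vehicle range. The SREBF2 difference of 0.19 ± 0.07 missed the threshold (adjusted p = 0.0757). It passed in 4 of the 20 alternatives, among them without AF replicate 4 (0.26, adjusted p = 0.00471). SCAP, the escort protein, was at 59.9 to 69.2 CPM with DMSO and 57.7 to 72.6 CPM with AF (0.02 ± 0.07, adjusted p = 0.917), and its sign turned when single libraries were left out.

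INSIG1 (chr7:155297776-155310235, plus strand), the retention protein whose transcription SREBP2 drives, was at 92.8, 79.3, 86.8 and 97.9 CPM with DMSO and 114, 105, 109 and 127 CPM with AF. No AF library fell into the vehicle range, and replicate 4 was the highest in both groups. INSIG1 rose 1.27-fold, from 89.2 ± 8.0 to 113.7 ± 9.57 CPM (SD, n = 4 each; 0.35 ± 0.07, adjusted p = 0.00509). Its relative INSIG2, which is less dependent on SREBP2, was at 11.2 to 15.2 CPM with DMSO and 12.6 to 16.2 CPM with AF (0.16 ± 0.11, adjusted p = 0.364). The difference between the 2 INSIG genes was not tested.

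MBTPS1 (chr16:84053761-84116906, minus strand), the site-1 protease, was at 125, 123, 123 and 122 CPM with DMSO and 140, 147, 145 and 135 CPM with AF. The groups were narrow and apart, and MBTPS1 rose 1.15-fold (0.20 ± 0.05, adjusted p = 0.0121), a call lost without AF replicate 3 (adjusted p = 0.0532). MBTPS2, the site-2 protease, was at 31.9 to 37.5 CPM with DMSO and 37.4 to 41.9 CPM with AF. Its AF libraries began at the top of the vehicle range, and the difference of 0.21 ± 0.08 did not pass (adjusted p = 0.0984). MBTPS2 passed in 2 of the 20 alternatives, among them DESeq2 (adjusted p = 0.0492). ERLIN1 and ERLIN2, membrane proteins of the endoplasmic reticulum that bind cholesterol and restrain SREBP activation, gave -0.02 ± 0.09 (adjusted p = 0.928) and -0.04 ± 0.05 (adjusted p = 0.625). ERLIN2 had the narrowest spread within groups of the 30 genes, 0.0364 on the log2 scale.

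Of the sterol movement genes, STARD4 (chr5:111496033-111512590, minus strand), a soluble carrier that moves cholesterol between membranes, had the largest log2 fold change of the 30 genes in this fit, close to that of MSMO1, and DHCR7 was higher without AF replicate 4 and with the GC offset. STARD4 was at 44.2, 40.7, 41.6 and 46.4 CPM with DMSO and 57.2, 56.2, 61.7 and 72.5 CPM with AF. The AF libraries were all well above the vehicle range, again with replicate 4 the highest. STARD4 rose 1.43-fold, from 43.2 ± 2.61 to 61.9 ± 7.48 CPM (SD, n = 4 each; 0.52 ± 0.08, adjusted p = 0.000663). TMEM97, a sterol-binding membrane protein known as the sigma-2 receptor, was at 22.99 to 24.4 CPM with DMSO and 24.3 to 28.5 CPM with AF (0.14 ± 0.09, adjusted p = 0.312).

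Without AF replicate 1, the log2 fold changes of the genes that rose were close to those with it: 0.37 for ACAT2, 0.27 for MVD, 0.41 for IDI1, 0.28 for FDFT1, 0.31 for SQLE, 0.55 for MSMO1, 0.46 for DHCR7, 0.34 for INSIG1, 0.20 for MBTPS1 and 0.55 for STARD4. ACAT2, FDFT1, SQLE, MSMO1, DHCR7, INSIG1 and STARD4 passed in 19 of the 20 alternatives, failing only with library totals alone.

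Level per exon length in the vehicle libraries, as TPM (reads per base of exon, scaled to a fixed sum over all genes) from the union of GENCODE 29 exons, spanned 20.6-fold over the 30 genes. LBR was highest at 116 ± 7.84 TPM (SD, n = 4), followed by FDPS at 110 ± 6.43, SQLE at 102 ± 6.10, FDFT1 at 97.4 ± 2.13 and PMVK at 96.4 ± 6.56 TPM. The ranges of these 5 overlapped from each to the next, and the next gene, INSIG1 at 73.1 ± 8.57 TPM, lay below them. SREBF2 stood at 68.8 ± 2.64 TPM, above both its proteases (MBTPS1 at 35.97 ± 1.22 and MBTPS2 at 11.5 ± 1.06 TPM) and its escort SCAP (30.2 ± 1.29 TPM). With the longest transcript as the length, MBTPS1 was at 67.4 ± 2.24 TPM, close to SREBF2 at 72.5 ± 2.72 TPM. INSIG1 was far above INSIG2, at 9.72 ± 1.71 TPM, and the lowest of all was MVK at 5.64 ± 0.564 TPM. The kinase PMVK, 1 step after MVK, was among the 5 highest. Of the 29 neighbouring pairs in this order, 23 had overlapping ranges. With the longest transcript as the length, FDPS came first (161 ± 9.49 TPM) and 6 of the 30 genes kept their place. Genes that rose were found from SQLE, near the top, to STARD4 at 22.7 ± 2.06 TPM.

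**Figure D4:**
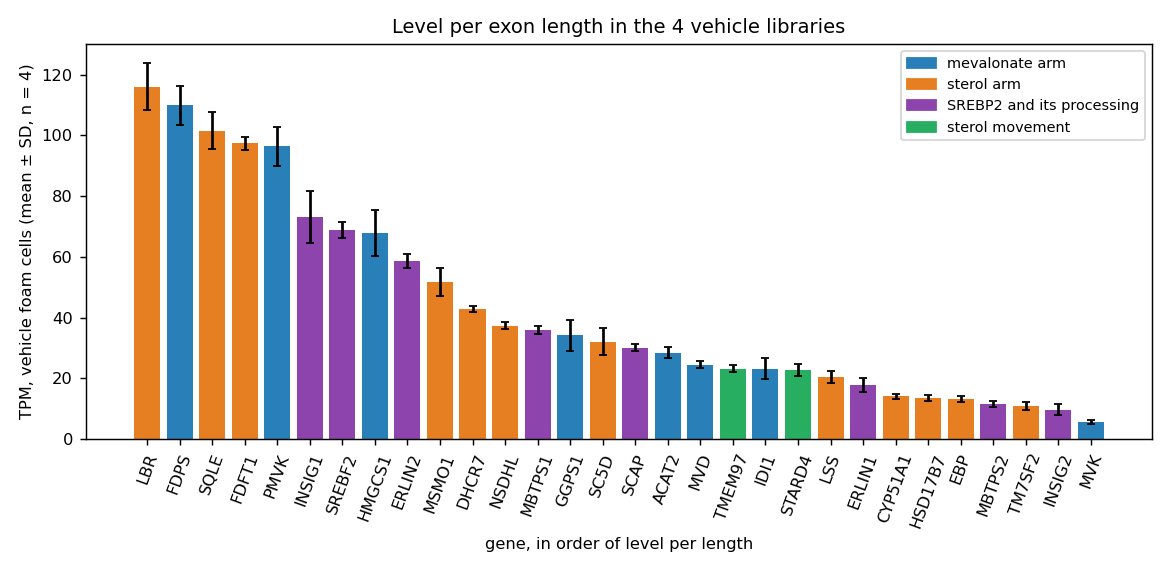
TPM of the 30 genes in the 4 vehicle libraries (mean ± SD), in descending order and coloured by role group, with the axis from 0. The 5 highest genes lie near 100 TPM (LBR, FDPS, SQLE, FDFT1 and PMVK) and the last, MVK, lies at 5.64 TPM.

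Over the 8 libraries, the closest partners by Pearson's r of log2 levels were MSMO1 with STARD4 (0.992), DHCR7 with MBTPS1 (0.979), SQLE with STARD4 (0.973) and IDI1 with INSIG1 (0.972). All genes in these pairs rose with AF, so their r over both groups includes that shift. The median r of a gene with the other genes ran from -0.691 (PMVK) to 0.696 (INSIG1). These values describe 8 libraries that share the 2 treatments and their depth. Within groups, replicate 4 ran high for some genes and low for others. Of the 15 genes with the lower transcript GC content (34.2% to 46.0%), DMSO replicate 4 was the highest vehicle library in 14 and AF replicate 4 the highest drug library in 13. Of the 15 with the higher GC content (46.5% to 64.2%), replicate 4 was the lowest in 11 with DMSO and in 11 with AF. In AF replicate 2, 11 of the 15 genes with higher GC were at their highest among the AF libraries. Over the 30 genes the correlation of GC content with the deviation from the group mean was -0.836 in DMSO replicate 4 and -0.832 in AF replicate 4, against -0.38 and -0.557 over 16980 genes. Between the groups, the log2 fold changes had an r of -0.198 with GC content over the 30 genes, and the median GC content was 47.5% in the genes that rose and 45.8% in the others. An offset for GC content was also added to the fit, a step chosen after seeing the data. With it 16 of the 30 genes rose, where 11.4% of all genes tested did, against 7.62% without it. The 16 were the 10 above with FDPS, LSS, TM7SF2, EBP, SC5D and SREBF2. PMVK fell (log2 fold change -0.19, adjusted p = 0.0311). In all, 3933 of 17535 genes were called, 1997 higher and 1936 lower.

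**Figure D5:**
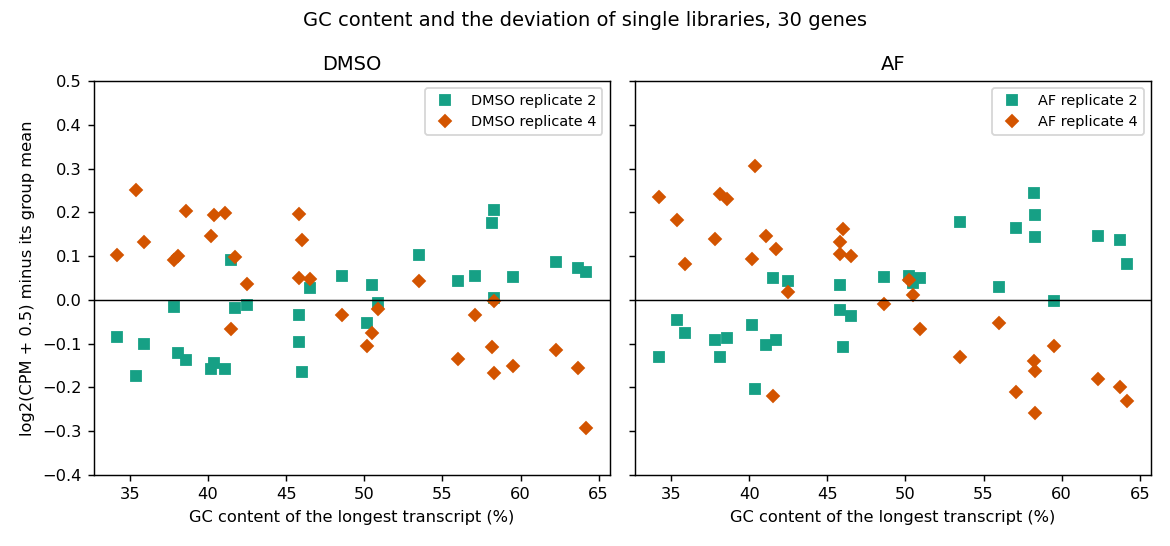
Deviation of replicates 2 and 4 from their group mean, as log2(CPM + 0.5), against the GC content of the longest transcript for the 30 genes, vehicle on the left and auranofin on the right. Replicate 4 falls with GC content in both panels (r of -0.836 and -0.832), and replicate 2 climbs (0.737 and 0.798).

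The genes around the pathway were counted in the same fit, as 3 neighbouring lists. Of 19 genes for partners of the SREBPs and for sterol-regulated protein degradation, 1 rose (5.26%) and 2 fell, with a median log2 fold change of -0.05, counts near the 7.62% and 7.81% of all genes tested. NFYA, the subunit of NF-Y that contacts the CCAAT box, was at 82.7, 81.7, 84.5 and 84.7 CPM with DMSO and 67.2, 68.1, 66.4 and 72.1 CPM with AF. All 4 AF libraries were below the vehicle range, and NFYA fell by 0.28 ± 0.05 (adjusted p = 0.00181). NFYC, another subunit, fell from 711 ± 26.1 to 604 ± 37.9 CPM (SD, n = 4 each; -0.24 ± 0.07, adjusted p = 0.0334), a call lost when any 1 of 6 libraries was left out, each but AF replicates 1 and 4 (adjusted p = 0.0504 to 0.121). The third subunit, NFYB, gave -0.25 ± 0.14 (adjusted p = 0.25). MARCHF6, a ubiquitin ligase that degrades squalene epoxidase, rose from 118 ± 7.33 to 135 ± 7.26 CPM (0.19 ± 0.06, adjusted p = 0.0452), with overlapping groups, and missed the threshold without AF replicate 1 (adjusted p = 0.0829) and without any 1 of DMSO replicates 1 to 3 and AF replicates 3 and 4 (adjusted p = 0.0657 to 0.141). SREBF1, which encodes the related SREBP1, gave -0.17 ± 0.10 (adjusted p = 0.294).

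The next list held 16 genes of the isoprenoid branch, which use farnesyl diphosphate for prenylation, ubiquinone and dolichol. At an unadjusted p below 0.05 in edgeR, 2 were higher and 4 lower, against 14.9% and 14.8% of all genes tested. DESeq2 called 2 higher and 3 lower, against 1542 and 1554 of 36160 genes. These 36160 include genes that the filter on low counts removed from the edgeR fit, so this background is not a like set. With limma voom 2 were higher and 2 lower, against 1629 and 1745 of 17535 genes. The main edgeR fit called 0 higher and 1 lower (6.25%), against 7.62% and 7.81% of all genes tested, at a median of -0.04. The 1 was SRD5A3, the polyprenol reductase of dolichol synthesis, which fell from 45.7 ± 3.64 to 36.5 ± 5.80 CPM (SD, n = 4 each; -0.32 ± 0.10, adjusted p = 0.0431), a call lost without AF replicate 1 (adjusted p = 0.052) and without any 1 of DMSO replicates 2 to 4 and AF replicates 2 and 3 (adjusted p = 0.0909 to 0.149). Of the 9 genes tested of acetyl-CoA supply and the ketone branch, 2 rose (22.2%) and 1 fell (11.1%), at a median of -0.09. ACSS2, which makes acetyl-CoA from acetate, rose (0.29 ± 0.08, adjusted p = 0.0218). The ACSS2 call was lost without any 1 of DMSO replicates 1, 2 and 4 and AF replicates 2 and 3 (adjusted p = 0.0602 to 0.0875). SLC16A1, a carrier of lactate and ketone bodies, was at 78.9, 90.2, 89.1 and 87.1 CPM with DMSO and 73.9, 64.5, 69.3 and 76.3 CPM with AF. The groups did not overlap, and SLC16A1 fell by 0.28 ± 0.06 (adjusted p = 0.00877).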

How the data were processed

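RNA of 8 THP-1 foam cell libraries was measured as counts per gene, which the authors deposited as 1 table of whole numbers without normalisation, and groups and replicate numbers were read from the sample titles. Per the submitters' processing notes, the tools were STAR 2.6.1d, featureCounts and Subread 1.6.3 and the build was GRCh38. Which annotation and strand setting were used, and how reads with several places or genes were handled, is not given in the sources used here.

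Counts were analysed in R 4.3.3 with edgeR 4.0.16 (TMM, filterByExpr defaults, glmQLFit and glmQLFTest, two-sided, Benjamini-Hochberg over 17535 genes, threshold 0.05), drug against vehicle, without a block and with 6 residual degrees of freedom. The biological coefficient of variation was 12.8%. A standard error is the log2 fold change divided by the square root of F, and the procedure was tested on simulated data. CPM used TMM-scaled totals, with 0.5 added before logs. Libraries whose counts agreed within sampling noise (chi-square divided by its degrees of freedom up to 1.1) were to be summed. The lowest value was 2.78, between DMSO replicates 2 and 3, so each entered singly. Exon lengths, GC content and positions came from GENCODE 29, which may differ from the authors' annotation (56916 of 62700 rows matched), and promoters from RefSeq. Counts are reads, with no molecular identifiers described.

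The 30 genes and the other lists were chosen with earlier results of these data known. All 30 genes are named whatever their result, and of each neighbouring list the called genes with the smallest p, up to 4, and SREBF1. Some results that this rule would name are not reported here. NFYB, SOD2 and the genes that overlap ACAT2, and pseudogene copies were named after their values were seen. Alternatives were DESeq2 1.42.0, limma 3.58.1 (voom, with a correlation estimated within name stems), other scalings and filters, a block by replicate number, a block by name suffix, sums over name stems, each library left out and a GC offset (loess span 0.3), the last chosen after seeing the data.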

Additional observations from a re-analysis of the deposited data

How the results depend on the processing

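The number of genes that rose among the 30 was 8 or more in 19 of 20 alternatives. In these 19 the share of all genes tested that rose ran from 4.26% to 12%. With DESeq2 (36160 genes) and without a filter (36234 genes) that share includes genes with low counts, so it is not comparable with the others. The 30 genes' median lay 0.155 to 0.202 above that of all genes in every fit. With library totals alone 0 rose, the 30 genes' median was 0.0399, 883 genes were called in all (20.7% of them higher, against 49.4%), and the neighbouring lists held 1 called gene against 7. With the GC offset 16 rose, where 11.4% of all genes tested did. PMVK was the 1 gene called lower with DESeq2, upper-quartile scaling, totals without AF replicate 1, at least 1 CPM in 4 libraries, the suffix block, summed stems, limma voom and the GC offset. The neighbouring lists held 14 called genes with DESeq2, 11 without a filter, 12 with at least 1 CPM in 4 libraries, 13 with limma voom and 15 with the GC offset. Leaving out 1 library gave 1616 to 2964 called genes (1616, 1648 and 1660 without DMSO replicate 2, DMSO replicate 3 and AF replicate 3), 8 to 12 of the 30 higher, 0 to 1 lower, medians of 0.159 to 0.202 and 2 to 10 called genes in the neighbouring lists. The cause of these changes was not tested. With the longest transcript the median level per length over the 30 genes was 35.4 TPM against 31.1.

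Same-numbered libraries correlated in their deviations from the group means at 0.106, 0.187, 0.0306 and 0.267, and each correlated best with its own number except DMSO replicate 3 (best with AF replicate 2, 0.0485) and AF replicate 3 (best with DMSO replicate 2, 0.0549). As 1 pair lay below 0.1 and the labels give the numbers no meaning, they were not taken as pairs. With the replicate number as a block 4188 genes were called against 2705, and 12% of all genes tested were higher. Of the 30, 15 were higher, among them LSS, LBR, SC5D, SREBF2 and MBTPS2 (adjusted p = 0.00513 to 0.0332). Of the 30, 1 was lower (PMVK, adjusted p = 0.00649), and the neighbouring lists held 18 called genes.

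None of the genes whose sign turned had passed the test. With library totals alone the log2 fold changes were -0.0249 for HMGCS1, -0.125 for MVK, -0.0187 for FDPS, -0.0369 for GGPS1, -0.137 for CYP51A1 and -0.14 for SCAP. With totals and without AF replicate 1, CYP51A1 was at -0.0344 and SCAP at -0.0225. HSD17B7 was at 0.002 without a filter, and CYP51A1 at -0.0152 with the GC offset. Leaving out 1 library put MVK at -0.0774 to 0.0812, GGPS1 at -0.0016 to 0.18, CYP51A1 at -0.0219 to 0.0927, HSD17B7 at -0.0432 to 0.0306, SCAP at -0.0356 to 0.0732 and ERLIN1 at -0.051 to 0.0537. Counts were lowest for MVK, EBP and TM7SF2, with as few as 216, 229 and 207 in a library. The part of depth in the spread of these genes was not tested.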
